A study of Mus musculus with 2 samples.

Results

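DLX2 CUT&Tag peaks were examined at 54 axon guidance genes, 25 ligand genes and 29 receptor genes, among 21523 protein-coding genes of the RefSeq annotation of the mouse build GRCm38, which is mm10. The genes were taken by name, and a peak was counted for a gene when it lay inside the annotated extent of the gene or within 50 kb of it. DLX2 is a homeodomain transcription factor, and in CUT&Tag an antibody against it directs a transposase to cut and tag the DNA around the sites where it sits. Both libraries came from maxillary process cells of E12.5 wildtype C57BL/6 embryos and were prepared with an anti-DLX2 antibody, and they form a single group of 2 replicates with no library from another genotype and no control library used here. Whether the replicates came from separate litters or from pooled embryos is not given in the sources used here. The labels describe sonicated chromatin, while the methods of the study describe CUT&Tag. A peak list holds no RNA levels, so the tissue could not be checked against marker genes.

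Axon guidance genes encode secreted or membrane-bound cues and the receptors by which a growth cone reads them. Slits signal through Robo receptors, netrins through DCC, neogenin and UNC5 receptors, semaphorins through plexins and neuropilins, and ephrins through Eph receptors. In the developing face these cues guide the branches of the trigeminal nerve, and ephrins and semaphorins also act on migrating neural crest cells, from which much of the maxillary mesenchyme derives.

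Start sites were looked at first, since the promoter sequence was available there. Promoter entries, each spanning 250 bases before and 50 bases after an annotated start site, were matched for 44 of the 54 genes, and these genes had 53 entries. Replicate 1 peaks met 0 of the 53 entries, which allows a share of up to 5.66%, against 0.797% of all 32619 promoters. Replicate 2 peaks met 2 of the 53 entries, or 3.77%, against 2.71% of all promoters. These are the start sites of *Ephb4*, a receptor of ephrin-B2 best known from blood vessels, and of *Sema4d*, a transmembrane semaphorin that binds plexin-B1. Their sequences are shown because they are the only member promoters among these entries that a peak of either replicate touched.

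The *Ephb4* entry lies at chr5:137349859-137350158 on the plus strand and the *Sema4d* entry at chr13:51748761-51749060 on the minus strand (RefSeq, GRCm38.p6). Each is written 5′ to 3′ along the gene, and capitals mark the bases covered by the replicate 2 peak.
Ephb4: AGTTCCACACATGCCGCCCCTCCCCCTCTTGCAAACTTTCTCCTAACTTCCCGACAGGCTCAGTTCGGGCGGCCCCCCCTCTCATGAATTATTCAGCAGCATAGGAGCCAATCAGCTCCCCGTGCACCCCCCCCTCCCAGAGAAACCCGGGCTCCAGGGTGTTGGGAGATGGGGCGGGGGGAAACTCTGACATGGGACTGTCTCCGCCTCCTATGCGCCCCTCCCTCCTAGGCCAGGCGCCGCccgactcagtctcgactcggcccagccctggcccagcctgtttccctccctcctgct
Sema4d: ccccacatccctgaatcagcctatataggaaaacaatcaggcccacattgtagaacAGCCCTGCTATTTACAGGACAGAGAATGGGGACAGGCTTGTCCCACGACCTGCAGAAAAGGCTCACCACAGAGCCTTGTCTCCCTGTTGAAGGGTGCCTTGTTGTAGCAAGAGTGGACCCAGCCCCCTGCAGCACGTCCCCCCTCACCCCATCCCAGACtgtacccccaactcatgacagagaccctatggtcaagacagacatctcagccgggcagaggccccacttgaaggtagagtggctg

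The peak at *Ephb4* covered 243 of the 300 bases, with a fold enrichment of 3.74 and 9 fragments at its summit, which lay at −261 bases from the start site and so just outside the entry. The peak at *Sema4d* covered 159 bases, with a fold of 3.52 and 10 fragments, and its summit lay at −107 bases. The start site of *Sema4d* in question is internal to the annotated gene. Fold enrichment compares the fragment number under the summit with the background expected around it, as the authors' peak caller gave it. Both peaks were weak and replicate 1 had none at either place.

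Letters of 4 motifs were searched on both strands of these entries. TAATTA and TAATTG, which share their first 5 bases, are cores bound by homeodomain proteins. TAATTA stood in 5.66% of the member promoters and 5.25% of all promoters, and TAATTG in 9.43% and 8.02%. TGTGGT, a core of Runx sites, stood in 11.3% of the member promoters and 16.6% of all, and CACGTG, an E-box, in 7.55% and 7.2%. The *Sema4d* sequence held TGTGGT on its other strand, and the *Ephb4* sequence held none of the 4. The median GC content was 65.0% for the member promoters and 53.0% for all promoters.

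Peaks at the axon guidance genes were then counted in each library. Replicate 1 had 185 peaks at these genes of 28061 in its list, and replicate 2 had 425 of 62093. The paper reports fewer peaks in each replicate and fewer common to both, so these lists are not the peak sets it described. Replicate 2 listed 2.21 times as many peaks as replicate 1, and its lowest local background was 1.10 fragments against 0.387 in replicate 1, so it is the deeper library by this measure. At least 1 peak lay at 49 of the 54 genes in replicate 1 (90.7%) and at 50 in replicate 2 (92.6%). Of all coding genes, 73.3% had a replicate 1 peak and 87.3% had a replicate 2 peak in a window of the same kind. The median was 3 peaks per member in replicate 1 and 8 in replicate 2, against 2 and 4 over all coding genes. Replicate 2 had more peaks than replicate 1 at 45 members, as many at 5 and fewer at 4.

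Regions covered by a peak of each replicate, called shared regions, are the only replicate check that these lists allow. There were 62 shared regions at the axon guidance genes, of 10881 on chromosomes 1 to 19 and X, and they rested on 62 peaks of replicate 1 and 61 of replicate 2. At members, 33.5% of the replicate 1 peaks were met in replicate 2, with a 95% Wilson interval of 27.1 to 40.6%, and at all coding genes 37.6% were. In the other direction 14.4% of the replicate 2 peaks at members were met, with an interval of 11.3 to 18%, and at all coding genes 16.5% were. The intervals cover counting error only. A shared region lay at 29 of the 54 genes, or 53.7%, where 45.2% of all coding genes had one. Both replicates had a peak somewhere in the window of 18 further genes without any of these peaks meeting. Only 1 replicate had a peak at 5 genes, and neither had one at *Sema3d* and *Epha5*.

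**Figure D1:**
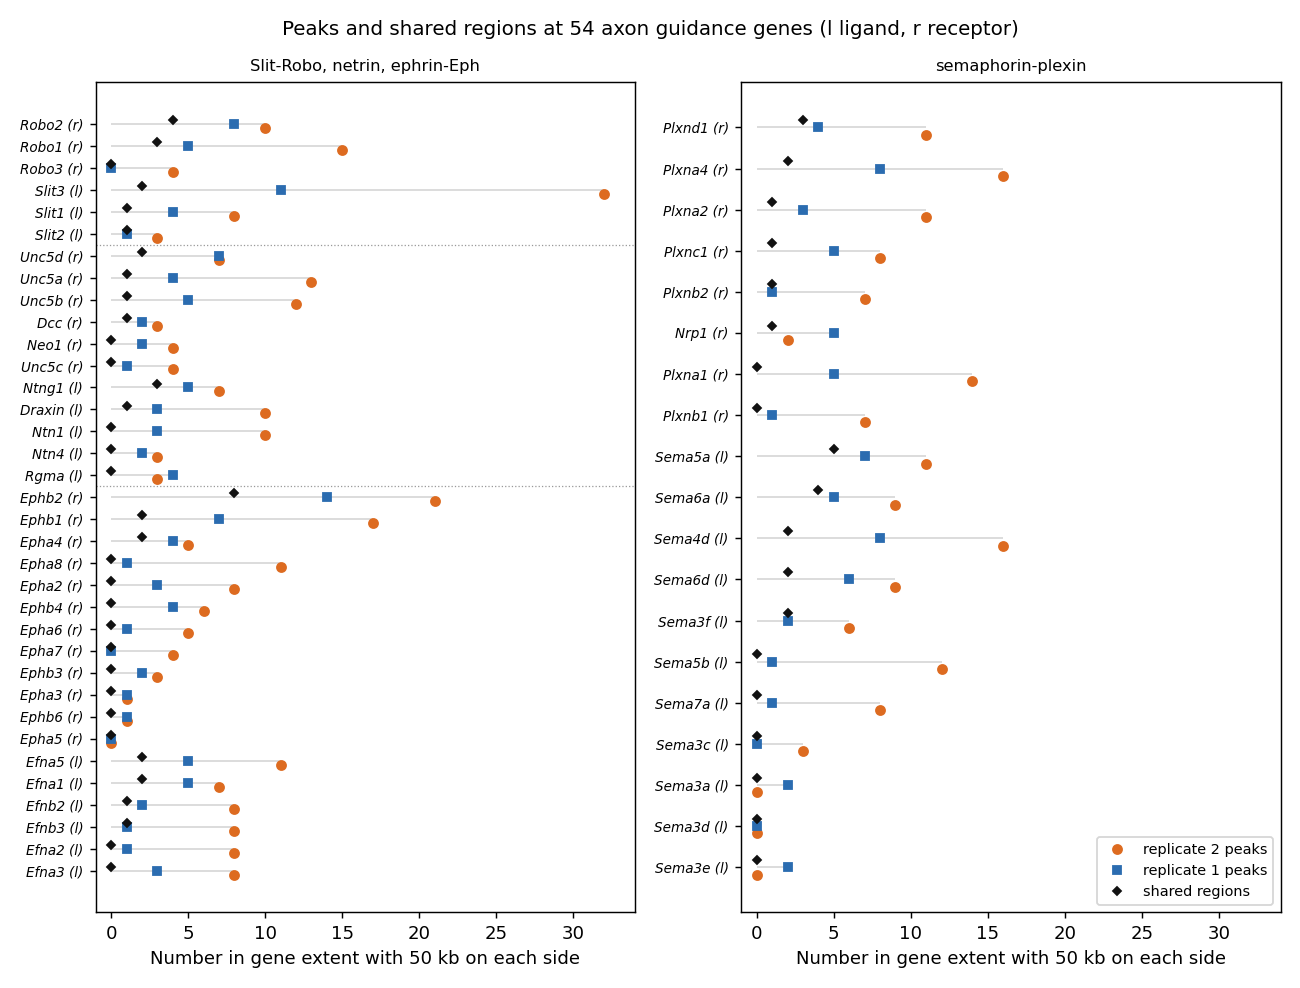
Number of replicate 1 peaks (blue squares), replicate 2 peaks (orange circles) and shared regions (black diamonds) within each of the 54 genes or 50 kb of it, on the horizontal axis, with a line for each gene, r for receptors and l for ligands. Replicate 2 lies to the right of replicate 1 at 45 genes, *Slit3* reaches 32 replicate 2 peaks with 2 shared regions, and *Ephb2* has the highest number of shared regions, 8.

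Axon guidance genes are long, with a median of 149 kb against 17.4 kb for coding genes. Over the autosomal coding genes, Spearman's rho between gene length and the number of peaks was 0.335 in replicate 1, 0.337 in replicate 2 and 0.248 for shared regions, and over the 54 members it was 0.319, 0.0477 and 0.347. Each member was therefore set beside the 200 autosomal coding genes nearest to it in length, which are called its length peers. The 62 shared regions compare with a sum of 89.8 over the means of the peers, a ratio of 0.690. In replicate 1 the ratio of the members' peaks to those of their peers was 0.820, and in replicate 2 it was 0.864, a mean of 0.842 ± 0.0314 (SD, n = 2). These ratios use the sum over genes, 188 peaks in replicate 1 and 430 in replicate 2, in which a peak in overlapping windows counts for each gene. Peer means, which enter these sums, can lie above peer medians, as for *Robo2*, at 3.5 and 2 shared regions. In replicate 1, 23 members had more peaks than the median of their peers and 23 had fewer, and in replicate 2 these numbers were 28 and 22. Without the 7 EphA receptors and 4 *Sema3* genes of chromosome 5, which were picked out after the values were seen, the other 43 members had 174 replicate 1 peaks against a peer sum of 175.9, 393 replicate 2 peaks against 383.2 and 60 shared regions against 68.6. Their ratios were 0.989, 1.03 and 0.875. Leaving out genes with low counts raises such ratios by itself. Without *Ephb2* alone, the member with the most shared regions, the ratio for shared regions was 0.611. Leaving out the highest count lowers this ratio by itself. Among the peers, 63.1% had a shared region, against 53.7% of the members. These ratios are descriptions of the lists and were not tested.

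By gene, 15 members had more shared regions than the median of their peers, 21 had as many and 18 had fewer. Over all autosomal coding genes, 37.6% exceeded the median of their own peers. At 7 members there were 3 or more shared regions, or 13.0%, where 7.77% of all coding genes had as many. This share is over genes with a median of 17.4 kb and is not matched for length. The 7 were *Ephb2*, *Sema5a*, *Robo2*, *Sema6a*, *Robo1*, *Ntng1* and *Plxnd1*. Peers of the longest gene, *Robo2*, ranged from 518 to 2271 kb, since few genes are as long. Per megabase of window, the members had 3.32 shared regions (exact Poisson interval 2.54 to 4.25), against 5.0 over the windows of all coding genes. These 2 densities are not matched for length either, since the members have a median of 149 kb.

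**Figure D2:**
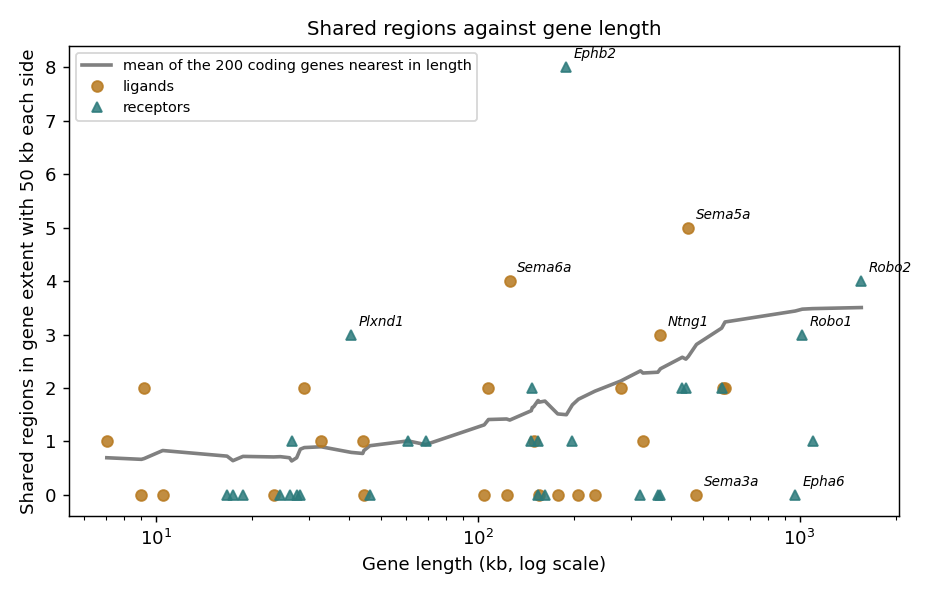
Shared regions per gene, in the gene extent with 50 kb on each side, against gene length on a log scale, for ligands (circles) and receptors (triangles), with the mean of each gene's 200 length peers as a grey line. *Ephb2* lies farthest above the line, at 8 against 1.5, while *Epha6*, at 969 kb, and *Sema3a*, at 479 kb, have none.

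Ligand and receptor genes were contrasted next. The 25 ligand genes had 29 shared regions, or 4.09 per Mb (interval 2.74 to 5.87), and the 29 receptor genes had 33, or 2.85 per Mb (interval 1.96 to 4.0). The ratio of ligand to receptor density was 1.44 in the shared regions, with an interval of 0.841 to 2.44 that includes equal density. In replicate 1 the ratio was 1.27 (interval 0.940 to 1.72) and in replicate 2 it was 1.39 (interval 1.14 to 1.68). Peaks of a gene are not independent, so these intervals are too narrow. Receptor genes were the longer, with a median of 154 kb against 126 kb. The order was not the same in each system. At plexin and neuropilin genes the density was 17 peaks per Mb in replicate 1 (interval 11.6 to 24.0), against 9.42 at the semaphorins (interval 6.52 to 13.2). These replicate 1 intervals overlap. In replicate 2 it was 40.4 (interval 31.8 to 50.6) against 20.5 (interval 16.1 to 25.7), so that the receptors of this system had the higher density in each library. Of the 3.61 Mb at semaphorins, 1.47 Mb lay at 4 *Sema3* genes of chromosome 5, with 4 and 3 peaks in the replicates. The receptors here were also the shorter, with a median of 96.6 kb against 155 kb, and had 19 other coding genes against 9. The part of these differences was not tested. Against their length peers, ligands and receptors as a whole were closer to each other, at ratios of 0.730 and 0.658 for shared regions. In replicate 1 these ratios were 0.827 and 0.814, and in replicate 2 they were 0.901 and 0.834. A shared region lay at 14 of 25 ligand genes and at 15 of 29 receptor genes. Without *Ephb2*, which alone held 8 of the 33 receptor regions, the ratio of ligand to receptor density was 1.85 (interval 1.05 to 3.29). *Ephb2* was picked after the values were seen. Leaving out the receptor with the most regions raises this ratio by itself, so no ligand excess can be read from it. Without the 7 members over 500 kb the ratio was 1.11.

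**Figure D3:**
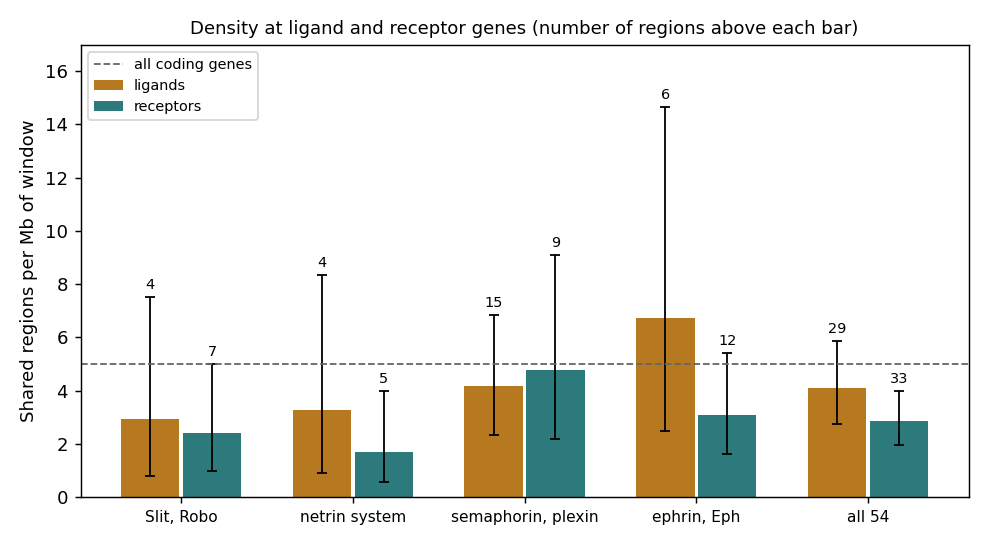
Shared regions per Mb of window at ligand and receptor genes of each system and of all 54 genes, with exact Poisson 95% intervals as bars and the number of regions above each. The dashed line is the value over all coding genes, 5.0 per Mb, which is not matched for gene length. The ligand and receptor intervals overlap in every system, and the ephrin genes have the highest bar, at 6.73 per Mb from 6 regions. Against their length peers the ephrin genes had a ratio of 1.04 in shared regions.

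Among the Slits, which repel axons at the midline, and their Robo receptors, 11 shared regions lay at 5 of the 6 genes. *Robo2*, at 73891976 to 75447443 of chromosome 16 in mm10, had 8 replicate 1 peaks, 10 replicate 2 peaks and 4 shared regions, all inside the gene, with a peer mean of 3.5. *Robo1*, at 72027518 to 73047491 of the same chromosome, had 5, 15 and 3, with a peer mean of 3.48. The peer median was 2 shared regions for each of these genes, so both lay above it. Both receptors are longer than most of their peers, whose median lengths were 754 kb for *Robo2* and 710 kb for *Robo1*. The peers of *Robo2* had means of 8.59 and 17.1 peaks in the replicates and those of *Robo1* had 8.46 and 16.8, so both genes had fewer peaks than these mostly shorter genes. *Slit3*, at 35121456 to 35708507 of chromosome 11, stood out by its replicate 2 peaks, with 32 against a peer mean of 15.5. Its replicate 1 peaks numbered 11, against a peer mean of 7.73, but only 2 shared regions lay in the gene. *Slit2* had 1, 3 and 1, and *Slit1* had 4, 8 and 1. *Robo3*, a short gene of 17.4 kb whose product modulates Slit signalling at the midline, had 0 peaks in replicate 1 and 4 in replicate 2.

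The netrin system had the lowest density of shared regions of the 4 systems, 2.16 per Mb, though its interval of 0.989 to 4.11 overlapped those of the others, and 9 regions where its length peers summed to 19.6. The ratio to peers was 0.764 in replicate 1 and 0.707 in replicate 2. *Ntng1*, which encodes the membrane-anchored netrin-G1, lies at 109780050 to 110149972 of chromosome 3 and had 5 replicate 1 peaks, 7 replicate 2 peaks and 3 shared regions, all inside the gene. *Unc5d*, a receptor through which netrin repels, had 7, 7 and 2. *Draxin*, a secreted repellent that binds DCC, had 3, 10 and 1. *Dcc*, the receptor through which netrin-1 attracts, spans 1098 kb and had 2 replicate 1 peaks, 3 replicate 2 peaks and 1 shared region. Its length peers had means of 8.51 and 17 peaks, so that *Dcc* lay below them in both libraries. *Unc5a* had 4, 13 and 1, and *Unc5b* had 5, 12 and 1. The region of *Unc5a* lay 46.2 kb outside the gene, and that of *Unc5b* lay in *Slc29a3*, 22.1 kb from *Unc5b*. The cue *Ntn1* itself had 3 peaks in replicate 1 and 10 in replicate 2 with none meeting, and *Neo1*, *Unc5c*, *Ntn4* and *Rgma*, which encodes a ligand of neogenin, likewise had no shared region.

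At semaphorin, plexin and neuropilin genes 24 shared regions were counted, 15 in the windows of the ligands, or 4.15 per Mb, and 9 in those of the receptors, or 4.78 per Mb. The ratios of the receptors to their length peers were 1.15 in replicate 1, 1.24 in replicate 2 and 0.848 for shared regions, and those of the ligands were 0.678, 0.685 and 0.755. *Sema5a*, a transmembrane semaphorin at 32244813 to 32696341 of chromosome 15, had 7 replicate 1 peaks, 11 replicate 2 peaks and 5 shared regions, against a peer mean of 2.59. *Sema6a*, which binds A-type plexins and lies at 47245254 to 47371200 of chromosome 18, had 5, 9 and 4, against a peer mean of 1.40. Of its 4 regions, 2 were segments under 1 broad replicate 2 peak. *Plxnd1*, the receptor of Sema3E in vessels, lies at 115954811 to 115995339 of chromosome 6 and had 4, 11 and 3, with a peer mean of 0.795. None of the 3 regions lay in *Plxnd1* itself, and another coding gene held each, namely *Tmcc1*, *H1f8* and *Ift122*. *Nrp1*, the co-receptor of class 3 semaphorins, was among the 4 genes with more peaks in replicate 1 than in replicate 2, with 5 and 2, and had 1 shared region.

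Secreted semaphorins of class 3 on chromosome 5, chosen for a description of their own after the values were seen, had few peaks in either library. *Sema3a*, the classic repellent of sensory axons, at 13124822 to 13603485 of chromosome 5, had 2 replicate 1 peaks and 0 replicate 2 peaks, where length peers had means of 6.76 and 14.0. *Sema3d* had 0 in both, *Sema3e* had 2 and 0, and *Sema3c* had 0 and 3. Together these 4 genes of chromosome 5 had 4 replicate 1 peaks, 3 replicate 2 peaks and 0 shared regions in 1.47 Mb, where their peers summed to 8.28 shared regions. Their windows held 0 other coding genes, against a sum of 6.68 over the means of their peers. Their class did not share this. *Sema3f*, on chromosome 9 among 4 other coding genes, had 2, 6 and 2, with peer means of 2.42, 5.72 and 0.885, and 1 of its regions lay in the neighbour *Slc38a3*. *Sema3b* and *Sema3g*, which are not among the 54 genes, had 3 and 1 shared regions, with peer means of 0.775 and 0.715. The windows of *Sema3b* and *Sema3g* held 11 and 6 other coding genes. The region in *Slc38a3* also lay in the window of *Sema3b*, so it is counted for both *Sema3f* and *Sema3b*. Whether neighbouring genes account for the contrast within the class was not tested. Semaphorins of classes 4 to 7 had 13 shared regions against a peer sum of 10.7, and none of the 13 lay at *Sema5b* or *Sema7a*. Among the plexins the counts of shared regions were 2 at *Plxna4*, 1 each at *Plxna2*, *Plxnb2* and *Plxnc1*, and 0 at *Plxna1* and *Plxnb1*. The region of *Plxnb2* lay in *Mapk11*, 9.48 kb from *Plxnb2*. *Plxna1* had 5 peaks in replicate 1 and 14 in replicate 2, more than its peer means of 2.42 and 5.67, but none of them met.

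Ephrin and Eph genes had 18 shared regions. *Ephb2*, a receptor of ephrin-B ligands with roles in commissural axon pathfinding and palate formation, lies at 136647536 to 136836326 of chromosome 4 and had 14 replicate 1 peaks, 21 replicate 2 peaks and 8 shared regions. Length peers had means of 4.13, 9.30 and 1.5, so it lay above them in each list. The 8 regions had folds between 3.99 and 5.48 in replicate 1 and between 3.56 and 8.09 in replicate 2, on 5 to 10 and 7 to 25 fragments. They spread over 207 kb, 5 inside *Ephb2* and 3 in the flank, where *Tex46* and *Lactbl1* are nearer. With peaks of fold 5 or more alone *Ephb2* had 1 shared region, and with peaks of −log10 q 5 or more alone it had 0, so that its high count rests on regions weaker than these limits. The window held 4 other coding genes, against a peer mean of 2.16.

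The EphA receptors contrasted with *Ephb2*; this split was also made after the values were seen. Their 7 genes had 10 replicate 1 peaks, 34 replicate 2 peaks and 2 shared regions, where the peers summed to 13.0 shared regions, and ratios to peers of 0.305 and 0.483 in the separate libraries. Both regions lay in the flanks of *Epha4*, a receptor of both ephrin classes, which had 4, 5 and 2. *Epha5* had 0 peaks in both lists, against peer means of 5.73 and 12.9. *Epha3* had 1 in each, and *Epha6*, a gene of 969 kb, had 1 and 5. *Epha7* had 0 and 4, *Epha2* had 3 and 8, and *Epha8*, whose window touches that of *Ephb2*, had 1 and 11. The 5 EphB genes had 28 and 48 peaks in replicates 1 and 2 and 10 shared regions against a peer sum of 6.24, and all 10 lay at *Ephb2* and *Ephb1*. *Ephb1* had 7, 17 and 2, in shared regions below its peer mean of 2.58 and equal to its peer median of 2. *Ephb3*, *Ephb4* and *Ephb6* had none.

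Ephrin genes had 6 shared regions, against a peer sum of 5.78. Their windows held 27 other coding genes, against a peer sum of 19.3. *Efna1*, at 89271730 to 89280951 of chromosome 3, had 5 and 7 peaks in the replicates and 2 shared regions, both outside the gene, near *Trim46* and *Krtcap2*. *Efna5*, whose product repels retinal and other axons through EphA receptors, had 5, 11 and 2, both inside the gene and 0.949 kb apart. *Efnb2* had 2, 8 and 1, with its region 8.11 kb outside the gene. *Efnb3* had 1, 8 and 1, and its region, 4 bp long, lay in *Dnah2*, 27.6 kb from *Efnb3*. *Efna2* and *Efna3* each had 8 replicate 2 peaks and no shared region.

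**Figure D4:**
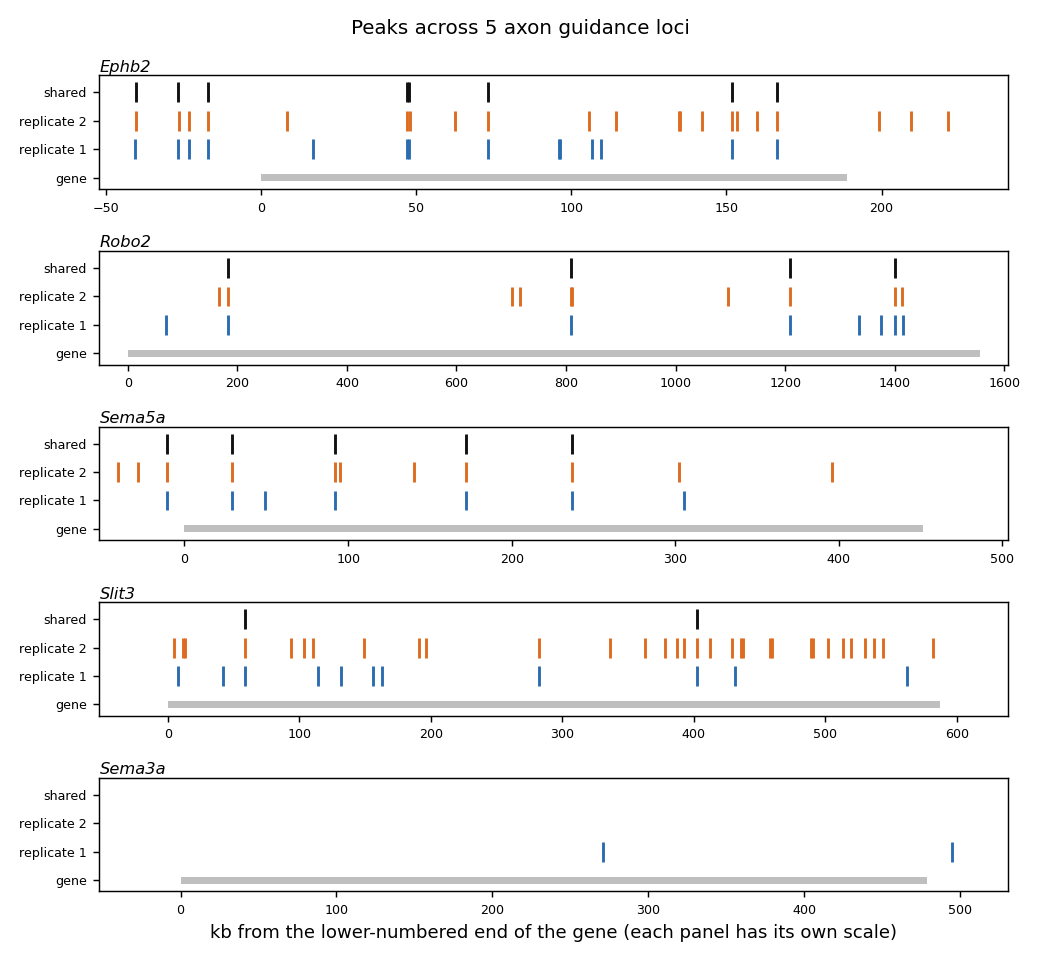
Positions of replicate 1 peaks (blue), replicate 2 peaks (orange) and shared regions (black) along 5 loci, in kb from the lower-numbered end of each gene (grey bar), with 50 kb of flank and a separate scale per panel. *Ephb2*, *Sema5a* and *Robo2* have 8, 5 and 4 shared regions, *Slit3* has many unmatched peaks, and *Sema3a* has 2 peaks in replicate 1 alone.

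The strongest regions lay at Robo, semaphorin and ephrin genes. The region with the highest fold in its weaker replicate was found 10 kb past the higher-numbered end of *Robo1*, from 73057347 to 73057708 of chromosome 16 in mm10. Its fold was 10.1 on 13 fragments in replicate 1 and 10 on 20 fragments in replicate 2. The next lay on chromosome 15 at 32233785 to 32234036, 10.9 kb before the start site of *Sema5a*, with folds of 10.1 and 9.30 on 13 and 19 fragments. The third, inside *Efna5* on chromosome 17 at 62779889 to 62780170, had folds of 11.9 and 8.09 with 18 fragments in each replicate. In the flank of *Epha4*, a region on chromosome 1 at 77335140 to 77335370 had folds of 7.72 and 9.30. In these 4 regions the summits of the replicates lay within 51 bp of each other, so both libraries placed them alike.

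The other six of the first 10 had lower folds. Inside *Robo2*, regions on chromosome 16 at 74075335 to 74075566 and 75100348 to 75100453 had folds of 6.49 and 7.14, and of 5.77 and 8.57. A second region at *Robo1*, at 72986391 to 72986513, had folds of 6.31 and 7.14. A second one inside *Sema5a*, on chromosome 15 at 32481511 to 32481787, had folds of 6.49 and 7.14. The region at *Dcc*, on chromosome 18 at 72351938 to 72352252, had folds of 6.44 and 7.62. It lay 0.866 kb outside the higher-numbered end of *Dcc* and was the only one of the 62 within 2 kb of a start site or end of its own member gene. The last, 43.4 kb outside *Plxnc1* on chromosome 10 at 94988325 to 94988522, had folds of 7.98 and 6.24.

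Across the 62 regions the lower fold of the replicates had a median of 4.37, with quartiles of 3.82 and 5.23. Among all shared regions these values were 4.51, 3.92 and 5.36. The regions at members rested on a median of 6.5 fragments in replicate 1 and 11.5 in replicate 2, against 7 and 12 over all shared regions. A fold of at least 5 in both replicates was reached by 18 of the 62 regions, or 29.0%, against 35.1% of all shared regions, and these lay at 14 genes. A −log10 q of 5 or more in both was reached by 9, or 14.5%, against 15.4%. Each of these values was a little lower at the axon guidance genes but close to that of all shared regions. The medians at members lay within the quartiles of all shared regions, and no difference was tested. Their median length was 145.5 bp, and the summits of the replicates lay a median of 62 bp apart.

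**Figure D5:**
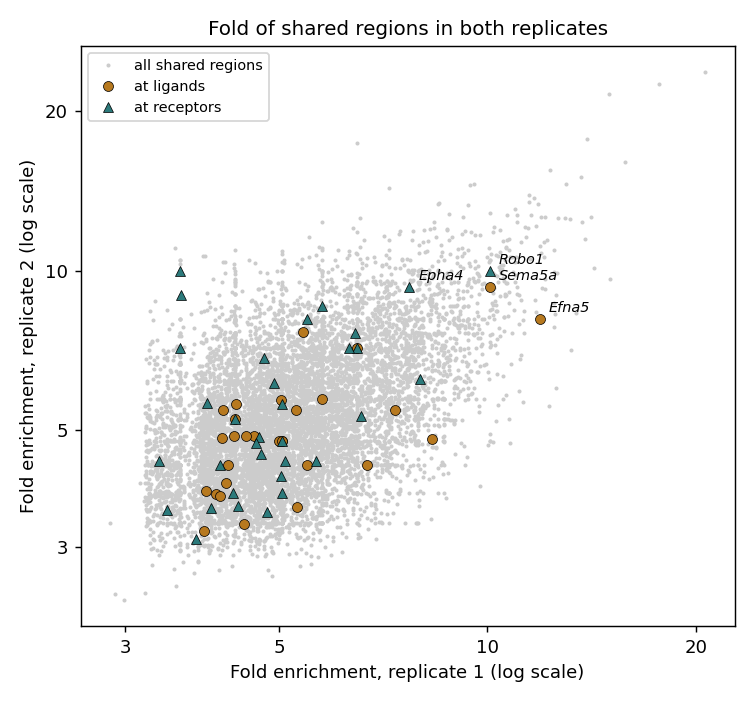
Fold enrichment of each shared region in replicate 1 and replicate 2, both on log scales, for all shared regions (grey) and for those at ligand (circles) and receptor genes (triangles). Most of the 62 regions lie within the cloud, with a median lower fold of 4.37, and those at *Robo1*, *Sema5a*, *Efna5* and *Epha4* lie toward the upper right.

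The regions lay mostly away from gene ends. Of the 62, 37 lay inside the member, 10 lay in its flank within another coding gene, and 15 lay in no coding gene. In all 47, or 75.8%, lay inside some coding gene, against 61.3% of the shared regions at all coding genes. These 2 shares are not matched for gene length, and the members are long. In the extents of the members alone the density was 2.77 regions per Mb, against 3.32 with 50 kb on each side. Within 2 kb of a start site or end of any coding gene lay 5 of the 62, or 8.06%, against 8.88%. For 50 of the 62 the member was the coding gene that held the region or lay nearest to it. The other 12 include the regions of *Plxnd1* and *Efna1* and 3 of those of *Ephb2*.

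The number of coding genes around each member was set beside its peak density. Over the 54 genes, Spearman's rho between peaks per Mb and other coding genes per Mb of window was 0.719 in replicate 2 and 0.345 in replicate 1. It was 0.0444 for shared regions. Over the 20560 autosomal coding genes the same values were 0.295, 0.159 and 0.0474. Both quantities are divided by the same window length, which alone makes them move together, the points share their libraries, and some windows overlap, so these are descriptions. The windows of the members held 92 other coding genes, where their length peers summed to 116, and the part of gene density in the lower counts at members was not tested. Peaks per Mb in the replicates had a rho of 0.643 over the members and 0.630 over the autosomal coding genes.

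Other genes of the pathway were counted from lists of their own. The 21 remaining genes of the same families had 47 replicate 1 peaks, 131 replicate 2 peaks and 17 shared regions, against a peer sum of 15.7, and 10 of the 21 had a shared region. They are shorter, with a median of 14.8 kb, and 3 of them lie on X. *Nrp2*, the second neuropilin, had 4, 16 and 2. *Ntn3* had 3, 13 and 3, and *Sema3b* had 4, 8 and 3. The 25 intracellular transducers, which carry guidance signals to the cytoskeleton, had 33 shared regions against a peer sum of 36.3, at 15 of the 25 genes. *Dpysl2*, which acts below semaphorin receptors, had 9, 12 and 4. In shared regions the ratios of these lists to their length peers were 1.09 and 0.909. In replicate 1 they were 1.07 and 1.25, and in replicate 2 they were 1.23 and 1.18, so in the separate libraries both lists lay above their peers. Windows of the 21 genes held 106 other coding genes against a peer sum of 69.0, and those of the transducers 54 against 55.6. Some windows overlap those of members, such as *Sema3b* with *Sema3f*, *Efna4* with *Efna3* and *Robo4* with *Robo3*. The difference from the 54 genes was not tested.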

How the data were processed

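Peak lists of 2 CUT&Tag libraries, each a separate list, were analysed as 1 group, and the labels and methods do not say whether the replicates are separate litters. The submitters' processing notes name Trim Galore 0.4.5, Bowtie 1.1.2, MACS2 2.2.7 and build mm10, whereas the methods of the study name bowtie2. Caller settings are not given in the sources used here. The deposited fold enrichment is a ratio to local background. The −log10 p-value and −log10 q-value deposited by the authors are the caller's own, and both lists stop near a q-value of 0.1. The deposited score is the whole part of 10 times the −log10 q. The deposited summit offset was used to match summits.

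No read totals are given in the lists. Fragments at each summit were solved from the fold and the −log10 p under a Poisson model, and every peak solved to a whole number within 0.001 These numbers were inferred from the lists.

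Gene extents came from RefSeq (GRCm38.p6). Coding genes of chromosomes 1 to 19 and X were used. Those listed before position 3000000, 108 in all, were left out, since neither list holds a peak before it on these chromosomes. Shared regions needed 1 bp of overlap. Intervals are 95% Wilson or exact Poisson. The members and lists were chosen with earlier results of these data known. Named were, per system, the 3 members with the most shared regions (ties by density), those with none, those with a region within 2 kb of a start site or end, and the 10 regions of highest lower fold; others were named after their values were seen. The motifs were searched in promoters alone, because the regions' own sequence was not used here. Counting and fragment recovery were tested on simulated data. Python 3.11.15, numpy 2.4.6, pandas 2.3.3 and scipy 1.17.1 were used.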

Additional observations from a re-analysis of the deposited data

How the results depend on the processing

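Of 94 alternative values for the main results, 54 stayed within 1.5 times the main count, within the interval of a density, or within 0.556 of the median fold, which is the median SD of fold between replicates. Keeping peaks of −log10 q 5 or more left 16 and 37 peaks at members, 9 shared regions at 8 members, 0.482 regions per Mb at all members, 0.564 at ligands and 0.431 at receptors, 8 members above their peers and a median lower fold of 6.49. Keeping peaks of fold 5 or more left 60 and 66 peaks, 18 regions at 14 members, 0.963, 1.13 and 0.863 per Mb, and a fold of 6.00. The gene extent alone gave 122 and 250 peaks and 37 regions at 18 members. An overlap of 50% of each peak gave 36 regions at 18 members and 1.93, 2.26 and 1.73 per Mb, and summits within 150 bp gave 2.25 per Mb at members and 2.40 at ligands. These lower counts follow from fewer peaks, shorter windows or a stricter match. With the peaks of a single replicate in place of shared regions, there were 185 to 425 regions at 49 to 50 members, 9.90 to 22.7 per Mb at members, 11.4 to 27.5 at ligands and 8.97 to 19.8 at receptors, and 23 to 28 members above their peers.

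The ratio of shared regions to length peers ranged from 0.567 with summits within 150 bp to 0.875 without the EphA receptors and the *Sema3* genes of chromosome 5, below 1 in each alternative run for it. The ratio of ligand to receptor density ranged from 1.11 to 1.85. Leaving out *Ephb2* or these subfamilies, scaling peers by regions per Mb and the subfamilies were chosen after the data were seen. With each region given to 1 coding gene, *Sema5a* and *Ephb2* both had 5. No paired analysis was possible because there is a single group, and with no control library no setting separates DLX2 sites from background shared by both libraries.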
